A study of Homo sapiens with 9 samples.

Results

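HEK293T cells that had been transfected with a control siRNA were compared here with HEK293T cells that had not been transfected. The comparison rests on 4 of the 9 arrays of the series, 3 arrays labelled mock and the single array of untreated cells. All 18239 genes with at least 1 probe set of a single gene symbol were compared, and a gene is described by whether all 3 mock arrays lay on the same side of untreated. HSPA1A, the stress-inducible cytosolic HSP70 chaperone, lay lower on all 3 mock arrays, and so did most chaperones of the endoplasmic reticulum and of the heat shock response. IFIT1, ISG15 and IFITM1, 3 of 32 measured interferon-stimulated genes, lay higher on all 3 mock arrays past 1.5-fold. So did the lysosomal thiol reductase IFI30, the cholinesterase BCHE and the protease inhibitor SPINT2. The interferon list as a whole had a median difference of 0.05, with 34.4% of its members higher and 18.8% lower on all 3. In 23 of its 32 members all 4 arrays lay below the median of all values. For HSPA1A, IFI30, IFIT1, ISG15 and IFITM1 the single untreated array lay beyond all 8 other arrays of the series. It did so too for further chaperones, HSPH1 and HSP90B1 among them, but not for DNAJB1 or HSPA5. The same held for 42 of the 61 genes higher and 3 of the 6 lower past 1.5-fold on all 3 mock arrays. No single gene passed the test across all genes.

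An siRNA is a short double-stranded RNA that is carried into cells by a lipid or similar reagent and loaded into Argonaute, where it pairs with matching transcripts. A control siRNA is meant to match no transcript, so that cells given it have met the reagent and a double-stranded RNA without loss of the intended target. Double-stranded RNA can be sensed by RIG-I-like receptors and by the kinase PKR and can induce interferon-stimulated genes, while lipid carriers act on membranes, the lysosome and stress pathways. A short siRNA can also lower transcripts that match only its seed.

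The study asked how gene expression follows the level of BRD1, a scaffold of histone acetyltransferase complexes, and the mock arrays serve it as controls for BRD1 siRNA. HEK293T is a line derived from human embryonic kidney that expresses the large T antigen of simian virus, and all cells were grown in DMEM with fetal calf serum. The 3 mock arrays are named Qiagen, Dharmacon 1 and Dharmacon 2 after the kit in their labels and, for the Dharmacon kit, the replicate number. The labels call them mock, the study's methods describe a scrambled siRNA, and both number the kits in opposite order, so the names of the labels are kept. The other 5 arrays are 3 of BRD1 siRNA under the same 3 names and 1 each of cells that stably express epitope-tagged BRD1-S or BRD1-L. Neither line was transfected with siRNA, but the labels of both give stable or episomal expression, so both carry introduced DNA. Below, transfected arrays are those of cells transfected with siRNA. The study's supplement describes a pair of siRNA controls as independent experiments. The labels do not say which arrays these were or whether all 3 mock arrays came from separate cultures, so part of their spread may be technical. The untreated group has 1 array with no spread of its own. Every difference below was taken against that same array, so a deviation of that array alone appears on all 3 mock arrays at once.

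Each array holds 49386 log2 intensities, with array means from 6.25 to 6.30 and a median of all values of 5.47. Of 9 genes known for HEK293 cells, 3 lay higher and 2 lower on all 3 mock arrays, with VIM at 13.14 and CDH2 at 10.28 on the untreated array. Marker lists of blood cells (7 measured), fibroblasts (9) and endothelial cells (6) stayed between 3.19 and 4.76 over the 4 arrays, below the median of all values. Epithelial markers (7 measured) reached 5.23, the value of EPCAM on the Dharmacon 1 mock array. BRD1 lay at 7.61 on the untreated array and at 7.82, 7.79 and 7.75 on the Qiagen, Dharmacon 1 and Dharmacon 2 mock arrays, a mean of 7.78 ± 0.04 (SD, n = 3). BRD1 was not lower in any mock array, whereas the BRD1 siRNA arrays lay between 6.75 and 7.07.

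The 3 mock arrays were not equally far from untreated. The Qiagen mock array had 276 genes more than 1.5-fold above and 428 below untreated, the Dharmacon 1 mock array 363 and 385, and the Dharmacon 2 mock array 261 and 28. Between the Qiagen and Dharmacon 1 mock arrays 23 genes differed by more than 1.5-fold, against 790 and 846 between either of them and the Dharmacon 2 mock array. The Dharmacon 2 mock array was thus nearer to untreated, at 289 genes, and to the BRD1-S line, at 199 genes, than to the other mock arrays.

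**Figure D1:**
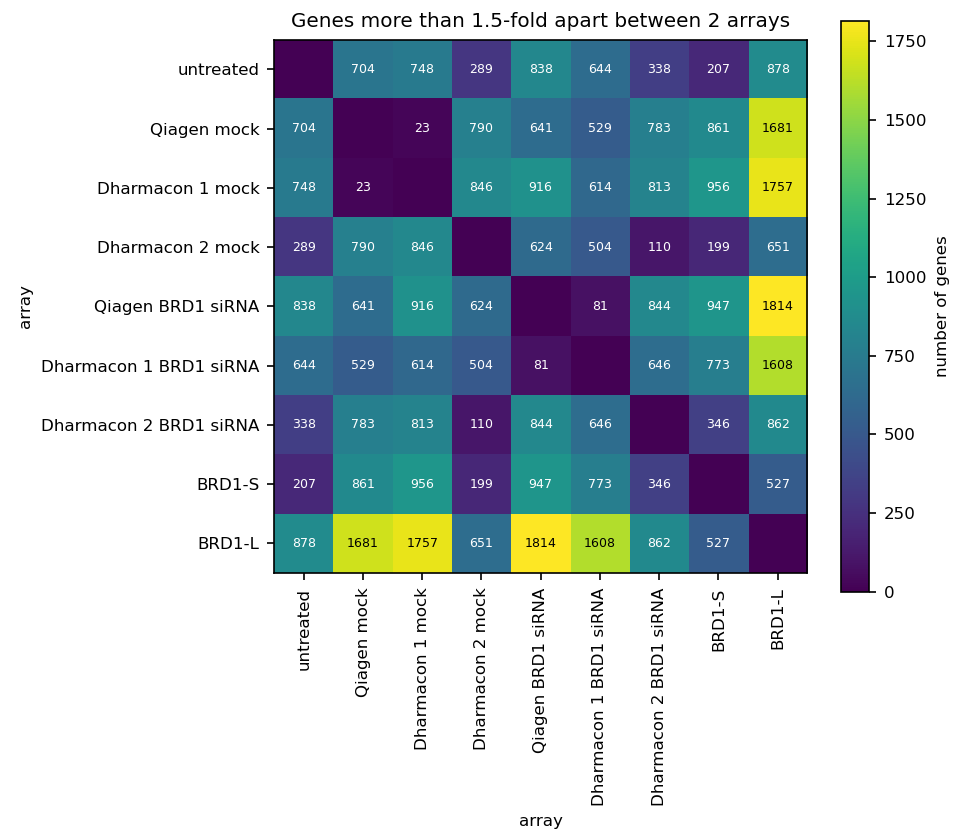
Number of genes more than 1.5-fold apart for each pair of the 9 arrays; rows and columns are arrays and colour gives the count. The Qiagen and Dharmacon 1 mock arrays differ in 23 genes, and the Dharmacon 2 mock array differs from them in 790 and 846.

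Of the 18239 genes, 4774 lay above untreated on all 3 mock arrays (26.2%) and 4458 lay below it on all 3 (24.4%). Past 1.5-fold, 0.58 on the log2 scale, 61 genes lay higher (0.334%) and 6 lower (0.0329%) on all 3. Those 6 were HSPA1A, KRCC1, PIR, ID1, ACYP2 and MAGOHB. Past 2-fold, 4 lay higher, namely RPRM, TFPI, KRTAP19-1 and RAB26, and 0 lower. Leaving out the Dharmacon 2 mock array raised the counts past 1.5-fold from 61 to 214 higher and from 6 to 299 lower, so that array limits most of the genes that could have been shared. Among the 61 higher genes, 25 had an untreated level at or under the median of all values, and the files used here hold no measure of background for such dim genes.

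The test across genes compared the 3 mock arrays with the untreated array by limma, with the spread taken from the mock arrays. It called 0 genes in either direction at an adjusted p of 0.05 (0.0%), and its smallest adjusted p was 0.836. At an unadjusted p under 0.05 it had 623 genes higher and 454 lower. None of the single genes described against untreated below passed this test, and their values are descriptions of these 4 arrays.

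The 5 arrays outside the comparison gave a count of the same kind. The cells of the 3 BRD1 siRNA arrays were transfected with siRNA and the BRD1-S and BRD1-L lines were not. Over all genes, the 3 BRD1 siRNA arrays lay above both lines in 2611 genes (14.3%) and below both in 2935 (16.1%). Of the 61 genes higher past 1.5-fold on the mock arrays, 27 lay higher and 6 lower by this measure. Of the 6 lower genes, 4 lay lower and 0 higher. These 5 arrays also differ by BRD1 level and by the transgenes of the lines, which cannot be told apart here from transfection.

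Among genes whose probe sets all lay on one side, and whose brighter level of untreated and mock was above the median of all values, the farthest above untreated were KRTAP19-1, RPRM, TFPI, IFI30, BCHE, OCEL1, CALCB, SPINT2, SPRYD4, TYMSOS, RBP7, HSBP1L1, CAV2, USP44 and TMEM100. IFI30, which reduces disulfide bonds in the lysosome and is induced by interferon gamma, lay at 9.06 on the untreated array and at 10.03, 10.03 and 10.01 on the Qiagen, Dharmacon 1 and Dharmacon 2 mock arrays. Its mock values lay close together, with a mean difference of 0.96 on the log2 scale, and the BRD1-S and BRD1-L lines at 9.66 and 9.51 lay between. TFPI, the inhibitor of tissue factor in coagulation, was read at 5.73 on the untreated array and at 6.93, 6.95 and 6.83 on the mock arrays. Here both lines, at 6.99 and 7.31, were as high as the mock arrays, so the untreated array alone stood apart.

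BCHE, which codes for butyrylcholinesterase, had levels of 4.24 on the untreated array and 5.94, 5.94 and 5.18 on the mock arrays, and CALCB, a calcitonin gene-related peptide, had 8.83 against 9.73, 9.77 and 9.72. Both genes were also higher on all 3 BRD1 siRNA arrays than in both lines, with BCHE at 4.18 in each line and CALCB at 7.07 and 6.50. The lines thus lay below untreated for CALCB by more than the mock arrays lay above it. SPINT2, a membrane inhibitor of serine proteases, lay at 8.91 on the untreated array and at 9.78, 9.82 and 9.95 on the mock arrays. Its values in the lines were 7.90 and 9.54, on either side of untreated.

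RPRM, a cell cycle inhibitor induced by p53, lay at 5.28 on the untreated array and at 7.25, 7.60 and 6.41 on the mock arrays. The lines were at 7.18 and 6.82, inside the range of the mock arrays. KRTAP19-1, a keratin-associated protein of hair, lay at 4.59 on the untreated array and at 6.15, 6.10 and 7.41 on the mock arrays, but the Qiagen and Dharmacon 1 BRD1 siRNA arrays were at 4.75 and 4.98. CAV2, a caveolin of the plasma membrane, showed a narrow range, at 6.97 against 7.76, 7.83 and 7.88.

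**Figure D2:**
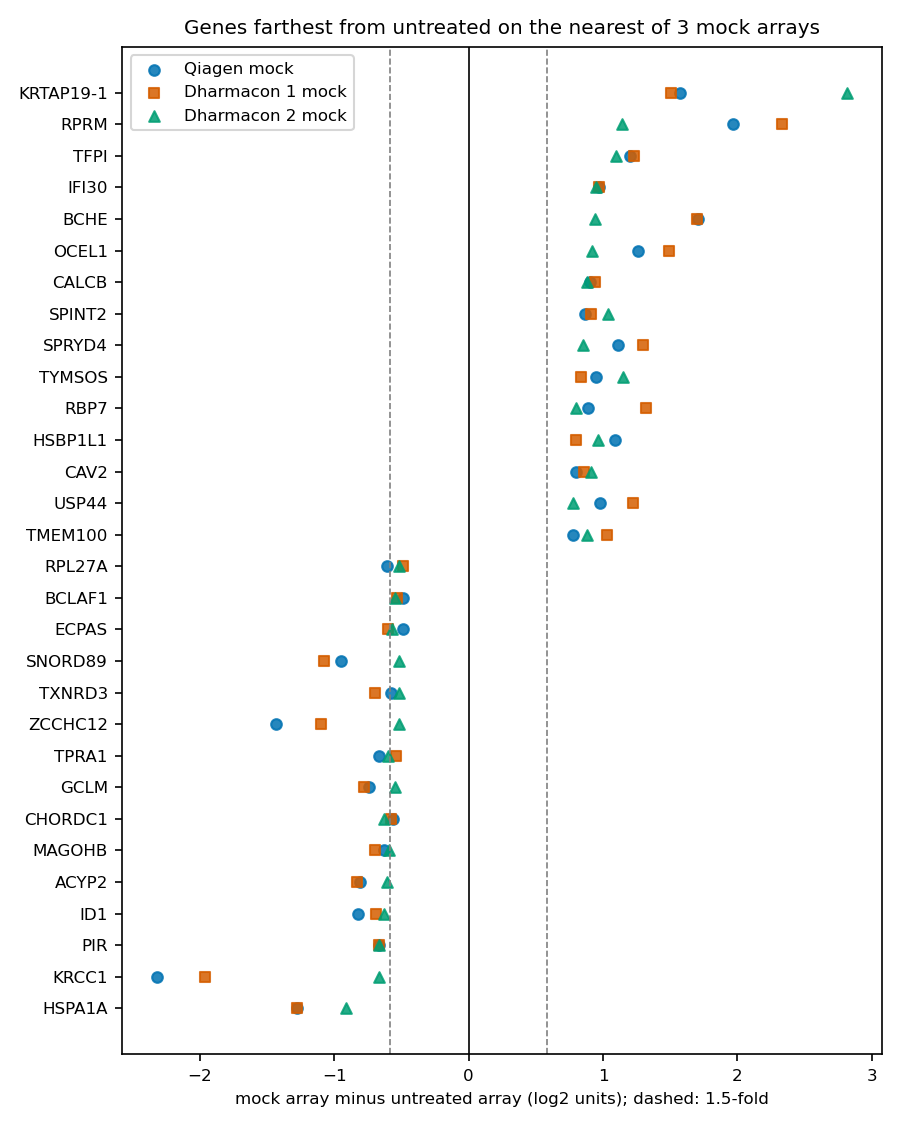
Difference of each mock array from the untreated array, in log2 units, for the 15 genes farthest above and the 15 farthest below by the array nearest to untreated; circles, squares and triangles are the Qiagen, Dharmacon 1 and Dharmacon 2 mock arrays and dashed lines mark 1.5-fold. IFI30, CALCB and PIR lie close together on the 3 arrays, while RPRM, KRCC1 and ZCCHC12 are spread widely.

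The farthest below untreated by the same rule were HSPA1A, KRCC1, PIR, ID1, ACYP2, MAGOHB, CHORDC1, GCLM, TPRA1, ZCCHC12, TXNRD3, SNORD89, ECPAS, BCLAF1 and RPL27A. PIR, an iron-binding nuclear protein, was read by 1 probe set at 9.60 on the untreated array and at 8.93 on each of the 3 mock arrays. ID1, an inhibitor of helix-loop-helix factors and a target of BMP signalling, lay at 8.78 on the untreated array and at 7.96, 8.09 and 8.15 on the mock arrays. For both genes the BRD1 siRNA arrays lay lower still or alike, at 8.34 to 8.82 for PIR and 7.88 to 8.13 for ID1, below the values of 9.39 and 9.70, and of 9.05 and 8.56, in the BRD1-S and BRD1-L lines.

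MAGOHB, a subunit of the exon junction complex, had 8.37 on the untreated array and 7.74, 7.68 and 7.79 on the mock arrays. Its levels on the BRD1 siRNA arrays, at 7.74 to 8.15, overlapped those of the lines at 8.15 and 7.74. KRCC1 had the widest spread among the genes past 1.5-fold on all 3 mock arrays, at 7.71 against 5.39, 5.75 and 7.04. GCLM, the modifier subunit of the enzyme that starts glutathione synthesis, lay at 9.68 against 8.94, 8.90 and 9.13, and the Dharmacon 2 mock array kept it just short of 1.5-fold. ID3, SMAD7 and ID1 of the BMP and TGF-beta targets lay lower on all 3 mock arrays and BMP2 higher, while the list as a whole was even, with 9 of 26 higher and 9 lower.

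The unfolded protein response raises the folding capacity of the endoplasmic reticulum: the sensors IRE1, ATF6 and PERK lead to transcription of chaperones such as HSPA5 (BiP), of protein disulfide isomerases and of the machinery that returns faulty proteins to the cytosol. Of its 24 measured genes, 0 lay higher and 19 lower on all 3 mock arrays (79.2%, beside 24.4% of all genes), and 0 of them passed 1.5-fold on all 3 or the limma test. The median difference was -0.27 on the log2 scale, and -0.36, -0.27 and -0.14 on the Qiagen, Dharmacon 1 and Dharmacon 2 mock arrays, beside 0.004 over all genes. In such bulk RNA, fewer cells with a transcript and less of it per cell cannot be told apart. On the arrays outside the comparison, 13 of the 24 lay lower and 1 higher on all 3 BRD1 siRNA arrays than in both lines. Over all genes these shares were 16.1% and 14.3%.

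HSPA5 lay at 10.20 on the untreated array and at 9.84, 9.78 and 9.93 on the mock arrays. All 3 mock arrays were below it, by a mean of 0.36, and the lines at 10.25 and 10.10 were close to untreated. CALR, the calcium-binding lectin chaperone calreticulin, lay at 7.71 against 6.98, 6.95 and 7.47, and at 7.73 and 7.69 in the lines. The co-chaperones DNAJB9 and DNAJB11 of the same compartment differed by -0.51 and -0.43, and the disulfide isomerases PDIA3, PDIA4 and PDIA6 by -0.38, -0.40 and -0.27. For PDIA4, PDIA6, HSP90B1, XBP1 and HYOU1 the untreated array was above every other array of the series. This was not so for HSPA5, CALR, DNAJB9, DNAJB11 and PDIA3, where the BRD1-S line was higher. ERN1 and ATF6, which code for sensors, did not lie on one side, with mean differences of 0.01 and 0.02.

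The endoplasmic reticulum stress element, through which ATF6 acts, was searched in the 250 bases before the start of each gene in RefSeq promoters of GRCh38.p14, as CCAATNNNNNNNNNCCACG on both strands. It was found in 7 of 23 members with a promoter in that table (HSPA5, HSP90B1, CALR, CANX, XBP1, CRELD2 and SERP1) and in 22 of 27305 promoters in all (0.0806%). All 7 lay lower on all 3 mock arrays, as did most members without it. Their mean differences ran from -1.34 for SERP1 to -0.05 for CANX. SERP1 differed by only -0.08 on the Dharmacon 2 mock array, and the probe sets of CANX ranged from -0.24 to 0.08. The stretch of up to 30 bases on either side of the match is shown for HSPA5 (chr9:125241361-125241439, minus strand) and CALR (chr19:12938359-12938432, plus strand), the most widely known chaperones among them, with the match in capitals. For CALR the match is on the other strand, so the capitals read as the reverse complement.
HSPA5: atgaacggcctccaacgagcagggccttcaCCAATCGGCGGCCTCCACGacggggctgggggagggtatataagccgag
CALR: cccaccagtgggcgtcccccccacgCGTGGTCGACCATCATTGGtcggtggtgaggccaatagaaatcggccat

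Heat shock chaperones are induced by the factor HSF1 when unfolded proteins build up in the cytosol and nucleus. Of 24 measured genes of this list, 18 lay lower on all 3 mock arrays (75.0%, beside 24.4% of all genes) and 1, HSPB8, higher, with a median difference of -0.17 and medians of -0.17, -0.17 and -0.18 on the Qiagen, Dharmacon 1 and Dharmacon 2 mock arrays. HSPA1A passed 1.5-fold on all 3 and 0 members passed limma. On the other 5 arrays, 8 of the 24 lay lower and 1 higher with BRD1 siRNA than in both lines, beside 16.1% and 14.3% of all genes. The median difference was -0.12.

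HSPA1A lay at 10.37 on the untreated array and at 9.09, 9.09 and 9.46 on the mock arrays. The BRD1-S and BRD1-L lines, at 9.07 and 8.54, and the BRD1 siRNA arrays, at 7.97 to 9.37, were also below untreated, so for this gene the untreated array was above all 8 others. Its 2 probe sets differed by -1.71 and -0.60, and HSPA1B, a nearly identical copy whose transcripts the probes may share, differed by -0.22.

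DNAJB1, the co-chaperone of HSP70, lay at 10.30 on the untreated array, at 9.49, 9.57 and 9.90 on the mock arrays, and at 10.26 and 10.38 in the lines. Here the untreated array and both lines were alike and the transfected arrays lower. HSP90AA1, the inducible form of HSP90, lay at 12.47 on the untreated array against 11.73, 11.89 and 12.11 on the mock arrays, and in the lines at 12.44 and 12.32. CHORDC1, a partner of HSP90, lay at 9.63 against 9.06, 9.05 and 9.00, but the lines were at 9.27 and 8.85 and the BRD1 siRNA arrays at 8.67 to 9.02. As for HSPA1A, the untreated array was above all 8 others. It was also above all 8 others, by less, for HSP90AA1 and further members such as HSPH1, HSPA4L, HSP90AB1 and DNAJA1. HSPH1 lay at 11.88 on the untreated array and at 11.66 and 11.52 in the lines. For such members the single untreated array and transfection cannot be told apart. HSPD1, the chaperonin of mitochondria, had a difference of -0.03 and lay on both sides.

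The heat shock element bound by HSF1 was searched in the same windows as 3 units, GAANNTTCNNGAA, on both strands. It was found in 3 of 21 members with a promoter in the table (HSPA8, DNAJB6 and CHORDC1) and in 120 of 27305 promoters (0.439%), and overlapping matches were merged. All 3 of these genes lay lower on all 3 mock arrays, as did most members without it. The probe sets of DNAJB6 ranged from -1.47 to 0.18 and those of HSPA8 from -0.37 to 0.03. CHORDC1, the member of the list nearest to 1.5-fold after HSPA1A, and one where the untreated array alone stood apart, has 3 overlapping matches (chr11:90223057-90223139, minus strand), shown in capitals.
CHORDC1: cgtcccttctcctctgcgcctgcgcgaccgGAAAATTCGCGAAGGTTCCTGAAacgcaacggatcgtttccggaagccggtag

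**Figure D3:**
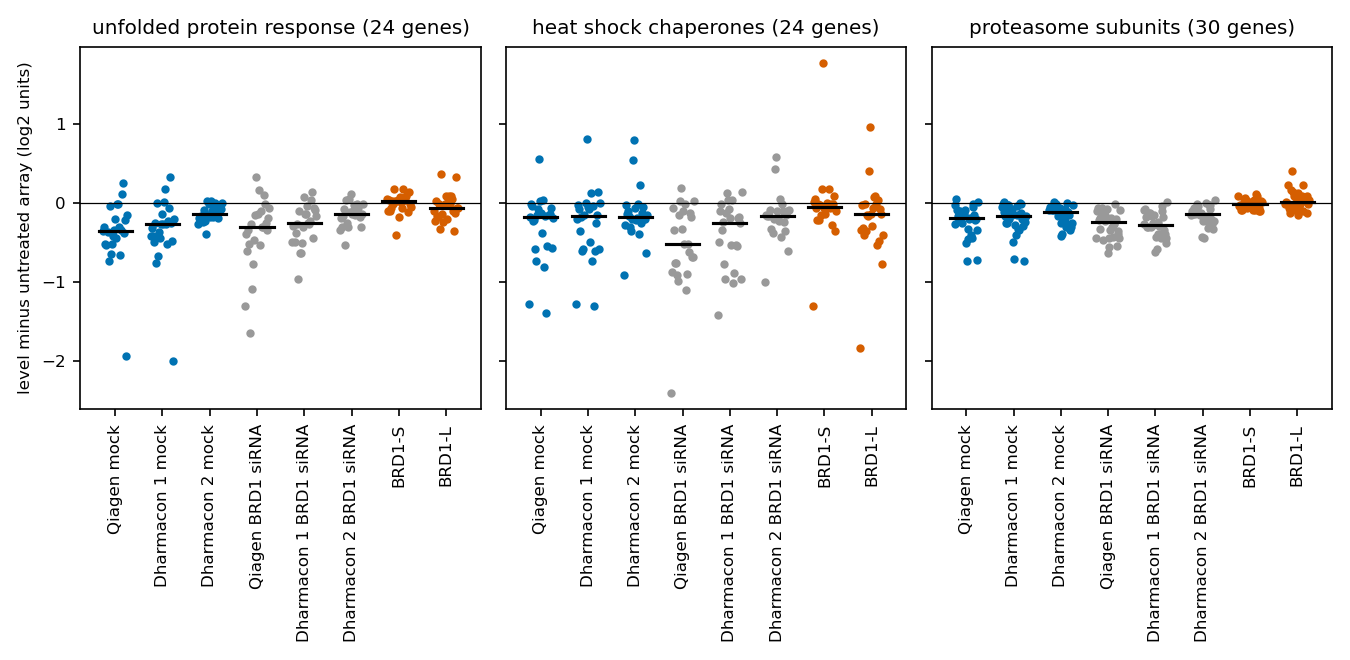
Level minus the untreated array, in log2 units, of each measured gene of the unfolded protein response, the heat shock chaperones and the proteasome on the other 8 arrays; points are genes, black bars medians, blue mock, grey BRD1 siRNA and orange the BRD1-S and BRD1-L lines. The medians of the unfolded protein response on the mock arrays are -0.36, -0.27 and -0.14.

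The proteasome degrades ubiquitin-tagged proteins, and the ATPase VCP with its adaptors extracts such proteins from membranes and complexes. These genes were grouped after their values had been seen, so their counts support nothing beyond the values themselves. Of 30 measured subunits, 26 lay lower (86.7%, beside 24.4% of all genes) and 0 higher on all 3 mock arrays, with a median of -0.15 and medians of -0.19, -0.16 and -0.12 on the Qiagen, Dharmacon 1 and Dharmacon 2 mock arrays. On the BRD1 siRNA arrays 26 of the 30 lay below both lines, beside 16.1% of all genes, with a median difference of -0.23. The differences were small, and 0 subunits passed 1.5-fold on all 3 mock arrays.

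PSMC1, an ATPase of the regulatory particle, lay at 11.79 on the untreated array, at 11.28, 11.29 and 11.37 on the mock arrays, at 11.15, 11.17 and 11.36 on the BRD1 siRNA arrays, and at 11.79 and 11.82 in the lines. The 6 transfected arrays were thus all lower than the 3 others. PSMD14, the deubiquitinase of the regulatory particle, had 11.76 against 11.04, 11.02 and 11.45, and PSMC3, another of its ATPases, 11.90 against 11.57, 11.62 and 11.51. VCP lay at 10.68 on the untreated array and at 10.30, 10.35 and 10.28 on the mock arrays, below the lines at 10.69 and 10.83. Its cofactors UFD1 and NPLOC4 differed by -0.80 and -0.47 on average, with the Dharmacon 2 mock array nearest to untreated.

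Because the 6 transfected arrays and the 3 others could be compared as groups, a fit of this kind was added after the data had been seen. The 6 arrays lay wholly above the 3 others in 785 genes (4.3%) and wholly below them in 864 (4.74%). By limma with 2 groups, 16 genes were higher (0.0877%) and 7 lower (0.0384%) in the 6 transfected arrays at an adjusted p of 0.05. The higher genes were ISYNA1, FAM210B, ITPR1, PITPNC1, BATF3, PPM1H, GPR160, TRIM7, LPCAT4, TSPO, GPM6A, FLCN, BTN3A2, BCHE, CSTF3 and ADGRE5, and the lower ones PSMC1, VCP, GPRASP2, ID1, FBXO30, CSTF2 and ARMC9. All 23 also lay on the same side of untreated on all 3 mock arrays, which adds no support because the fit used those same arrays. The groups share the mock arrays and the untreated array with the comparison above, so these calls are not a second sample of it. Each group mixes BRD1 levels, and BRD1 itself differed by -1.37 between the transfected arrays and the others. BRD1 level and transfection cannot be told apart here.

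ISYNA1, the enzyme that makes inositol phosphate from glucose phosphate, rose by 0.83 ± 0.09 (SE) on the log2 scale, with an adjusted p of 0.0286 by limma. It lay at 8.20 on the untreated array and 8.18 and 8.16 in the lines, against 8.82, 8.87 and 9.03 on the mock arrays. BATF3, a leucine zipper transcription factor of dendritic cells, rose by 0.79 ± 0.10, from 7.42 on the untreated array to 8.05, 8.03 and 8.04 on the mock arrays, with an adjusted p of 0.0286. PSMC1 fell by 0.53 on the log2 scale (SE 0.06, adjusted p 0.0286), VCP fell by 0.45 (SE 0.06, adjusted p 0.0288) and ID1 fell by 0.76 (SE 0.10, adjusted p 0.0303). CSTF3 rose and CSTF2 fell, both subunits of the factor that cleaves transcripts before polyadenylation, by 0.59 ± 0.09 and -0.44 ± 0.06, with adjusted p of 0.0464 and 0.0393, and of 0.0599 and 0.0501 with the replicate block described next.

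The 6 arrays are 3 pairs of a mock and a BRD1 siRNA array of the same name, and the fit took them as independent, although the Dharmacon 2 pair differed in only 110 genes. With each pair as a random replicate block (duplicateCorrelation in limma, correlation 0.149), 13 genes were higher and 6 lower, all 19 among the 23. The calls of BCHE, CSTF3, CSTF2 and ADGRE5 were lost, with adjusted p of 0.0599, 0.0599, 0.0501 and 0.0501. The block does not account for the closeness of the Qiagen and Dharmacon 1 arrays to each other. These calls rest on few arrays. Leaving out each array in turn gave between 0 and 20 genes higher and between 0 and 14 lower, with 0 in both directions without the Dharmacon 1 mock array or without the Dharmacon 1 BRD1 siRNA array, and 1 higher and 0 lower without the Qiagen mock array or without the BRD1-S array. The counts were 3 and 0 without the Qiagen BRD1 siRNA array, 2 and 1 without BRD1-L, 14 and 3 without the Dharmacon 2 BRD1 siRNA array, and 20 and 14 without the Dharmacon 2 mock array. Without the untreated array 19 genes were higher and 14 lower, of which 12 were among the 23. A fit with 5 groups called 32 higher and 19 lower, 12 of them among the 23.

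**Figure D4:**
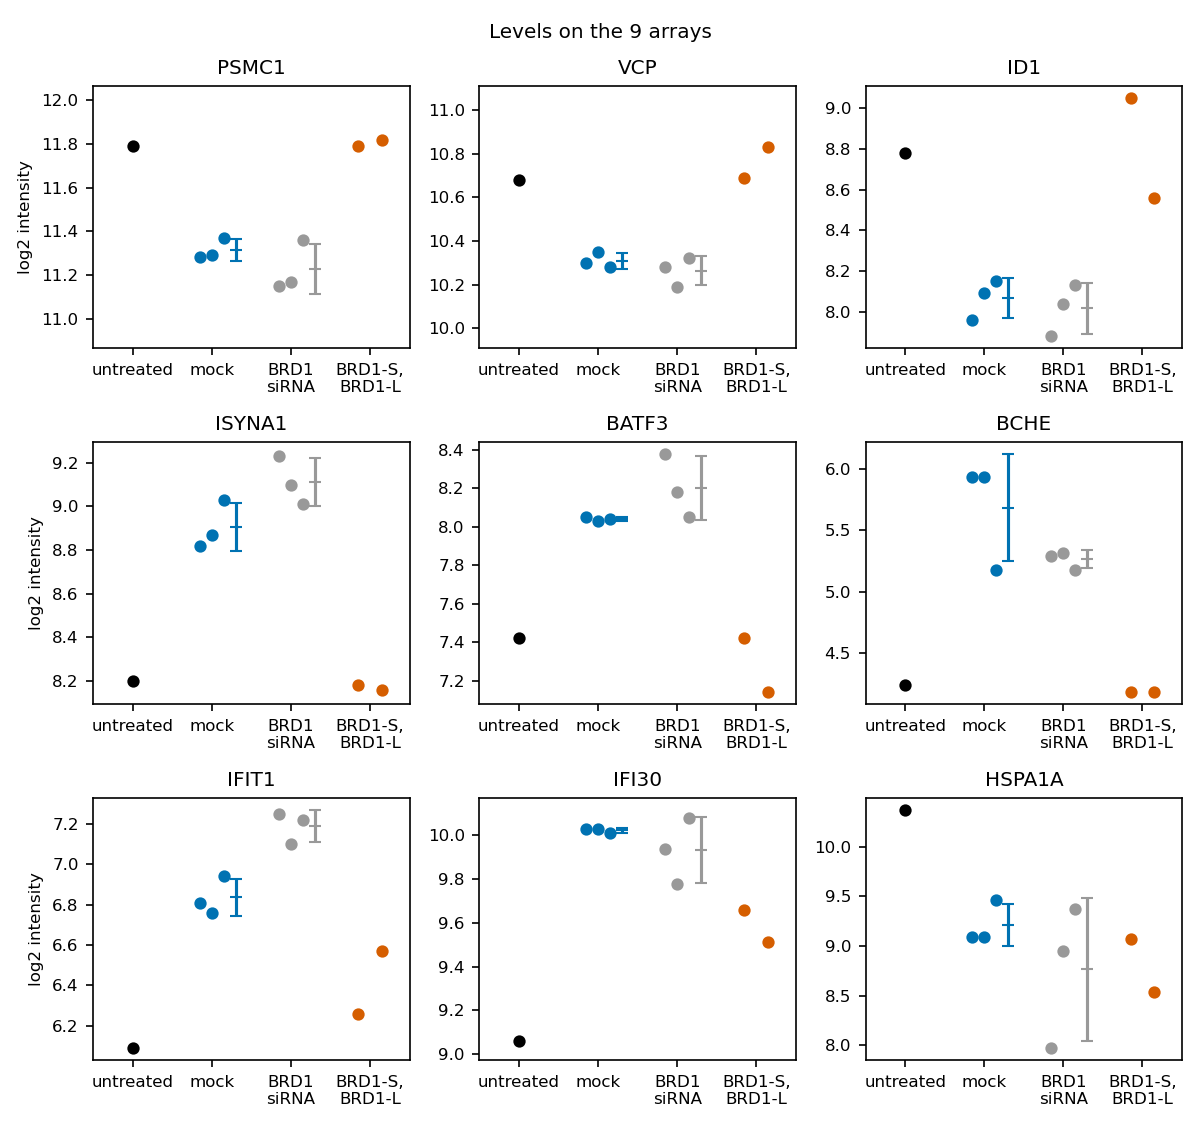
Log2 intensity of 9 genes on the untreated array (black), the 3 mock arrays (blue), the 3 BRD1 siRNA arrays (grey) and the BRD1-S and BRD1-L lines (orange); bars are the mean and SD of 3 arrays, and the axes do not start at 0. PSMC1, VCP and ID1 are lower and ISYNA1, BATF3 and BCHE higher on all 6 transfected arrays, while HSPA1A is highest on the untreated array.

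Interferon-stimulated genes code for proteins that limit viral replication. Of 32 measured, 11 lay higher (34.4%, beside 26.2% of all genes) and 6 lower (18.8%, beside 24.4%) on all 3 mock arrays, with a median of 0.05. In 23 of the 32, all 4 arrays lay below the median of all values, MX1 among them at 3.58 on the untreated array and at 3.55, 3.58 and 3.55 on the mock arrays. IFIT1, ISG15 and IFITM1 were the 3 members higher past 1.5-fold on all 3, beside 0.334% of all genes. Of the other brighter members, IFITM2, HERC5 and USP18 also lay higher on all 3, and IFIT5, IFI6 and BST2 lay on both sides. IFIT1, which binds viral RNA, lay at 6.09 on the untreated array and at 6.81, 6.76 and 6.94 on the mock arrays, with the BRD1 siRNA arrays at 7.10 to 7.25 and the lines at 6.26 and 6.57. All 6 transfected arrays were thus above the 3 others, with an adjusted p of 0.073 in the limma fit of 2 groups.

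ISG15, a ubiquitin-like modifier, lay at 5.41 against 6.09, 6.28 and 6.41, but the lines were at 6.20 and 5.46. IFITM1, a membrane protein that blocks viral entry, lay at 7.89 against 8.64, 8.80 and 9.37. HERC5, the ligase for ISG15, and USP18, which removes it, differed by 0.42 and 0.37. Of 22 genes for sensors of double-stranded RNA and for RNA interference, 7 lay higher (31.8%) and 4 lower (18.2%), with a median at 0. DICER1, which processes small RNAs, lay at 9.05 on the untreated array against 9.39, 9.41 and 9.18, and PRKRA, an activator of PKR, at 9.97 against 9.74, 9.70 and 9.66. RIGI and IFIH1, the receptors themselves, stayed under 5 on all 4 arrays, at 4.36 and 3.35 on the untreated array.

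Targets of the integrated stress response, which ATF4 raises when translation is slowed, had 12 of 32 higher (37.5%, beside 26.2% of all genes) and 4 lower (12.5%, beside 24.4%) with a median of 0.09. With BRD1 siRNA, 13 of the 32 targets lay higher and 2 lower than in both lines, beside 14.3% and 16.1% of all genes. AARS1, a tRNA synthetase among them, lay at 9.12 on the untreated array and at 9.96, 10.03 and 9.58 on the mock arrays, whereas ATF5, a transcription factor of this response, lay at 7.15 against 6.35, 6.46 and 6.70. Immediate early and ERK feedback genes had 15 of 29 higher (51.7%, beside 26.2% of all genes) and 5 lower, with a median of 0.11. JUN, a subunit of AP-1, lay at 9.80 against 10.26, 10.19 and 10.19, but the lines, at 10.22 and 10.55, were above untreated as well. On the arrays outside the comparison, 4 of these 29 genes lay higher and 7 lower with BRD1 siRNA, beside 14.3% and 16.1% of all genes.

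Cytosolic ribosomal proteins had 19 of 34 higher (55.9%) and 4 lower on all 3 mock arrays, by a median of only 0.05. RPL37 lay at 9.91 against 10.22, 10.21 and 10.16. RPS20, at 8.01 against 7.58, 7.52 and 7.80, went the other way, and its 3 probe sets ranged from -0.71 to 0.06. Sterol synthesis and uptake had 10 of 19 lower (52.6%, beside 24.4% of all genes) and 3 higher (15.8%, beside 26.2%) with a median of -0.09. SQLE and HMGCS1, enzymes of cholesterol synthesis, differed by -0.30 and -0.37, and 4 of the 19 genes lay lower and 5 higher with BRD1 siRNA than in the lines, beside 16.1% and 14.3% of all genes.

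Extracellular matrix and integrin genes had 14 of 34 higher (41.2%, beside 26.2% of all genes) and 2 lower (5.9%, beside 24.4%), with a median of 0.06, and LAMB1, a laminin chain, lay at 6.27 against 6.67, 6.80 and 6.73. In 15 of these 34 genes all 4 arrays lay below the median of all values. Simple epithelial keratins and surface genes had 11 of 21 higher (52.4%, beside 26.2% of all genes) and 1 lower (4.8%, beside 24.4%). Of these 21, 13 lay below that median on all 4 arrays. With BRD1 siRNA, 3 of the 21 lay higher and 6 lower than in both lines, beside 14.3% and 16.1% of all genes. EPCAM, an adhesion protein of epithelia, lay at 4.04 on the untreated array against 4.96, 5.23 and 4.65, all below the median of all values. In the NRF2 list, 4 of 20 lay higher (20.0%) and 7 lower (35%), and HMOX1, which degrades heme, lay at 8.36 against 7.53, 7.75 and 7.94. Lists of oxidative phosphorylation, glycolysis and hypoxia, DNA replication, mitosis, histones, WNT and HOX genes had medians from -0.02 to 0.16 and no member past 1.5-fold on all 3 mock arrays.

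The untreated array lay below all 8 others in 1800 genes and above all 8 in 1695. Of the 61 genes higher past 1.5-fold on all 3 mock arrays, 42 were of this kind, as were 3 of the 6 lower ones. The widest gaps below the others were those of RAB26, RPRM, TFPI, QPCT and NTS, and the widest above were those of HSPA1A, TMEM190, MAPK6, THNSL1 and MTMR9LP. RAB26, a GTPase of secretory granules, lay at 3.85 on the untreated array, at 5.31, 5.37 and 5.21 on the mock arrays and at 5.12 and 5.57 in the lines. QPCT, which forms pyroglutamate at the end of peptides, lay at 7.37 against 8.09, 8.15 and 8.75, and the lines reached 8.65 and 9.25. For these genes the single untreated array and transfection cannot be told apart.

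All 6 transfected arrays lay beyond the 3 others in 27 of the 61 higher genes and in 4 of the 6 lower ones. Of these, 11 higher genes and 1 lower, KRCC1, were also among those where the untreated array lay beyond all 8 others. Over all genes, whether or not past 1.5-fold on the mock arrays, the widest gaps between the 6 transfected arrays and the 3 others were upward those of BCHE, CALCB, ISYNA1, BATF3, CTSZ, BTN3A2, PPM1H and LPCAT4, and downward those of ZCCHC12, GPRASP2, PIR, PSMC1, ID1, PRIMPOL, KRCC1 and CYP1B1. CTSZ, a lysosomal cathepsin, lay at 4.61 on the untreated array, at 5.22, 5.36 and 5.41 on the mock arrays, and at 4.48 and 3.72 in the lines. GPRASP2, a protein that sorts receptors to lysosomes, lay at 10.26 against 9.38, 9.50 and 9.80.

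The spread among the 3 mock arrays had a median SD of 0.099 over all genes, and 272 genes had an SD over 0.5. Among the 67 genes past 1.5-fold on all 3 mock arrays, KRCC1, KRTAP19-1, RPRM, LHX8, BCHE, HOPX, IFITM1 and QPCT were the most spread, with SDs from 0.87 to 0.37. The Qiagen and Dharmacon 1 mock arrays were both more than 1.5-fold below the Dharmacon 2 mock array in 468 genes and above it in 131. In 321 of the 468 and 103 of the 131, the BRD1 siRNA arrays of the same names lay in the same order, beside 30.1% and 47.4% of all genes. Most of the split was thus shared by both kinds of siRNA array. By their labels, Dharmacon arrays lay on both sides of it, but the labels and the study's methods number the kits in opposite order. Whether the kit or anything else set those arrays apart was not tested.

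The 22 measured targets of p53, which large T antigen binds, showed the split most plainly, with medians of -0.23 and -0.19 on the Qiagen and Dharmacon 1 mock arrays and 0.42 on the Dharmacon 2 mock array. CDKN1A, the inhibitor of cyclin-dependent kinases, lay at 7.63 on the untreated array and at 6.48, 6.41 and 9.18 on the mock arrays. The BRD1 siRNA arrays, at 7.04, 6.80 and 8.95, gave the same order. FAS, a death receptor, lay at 6.75 against 5.89, 6.18 and 7.47. BAX and GADD45A, in contrast, lay higher on all 3 mock arrays, by 0.37 and 0.35 on average. Ribosome biogenesis genes split the other way, with medians of 0.07, 0.11 and -0.21.

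**Figure D5:**
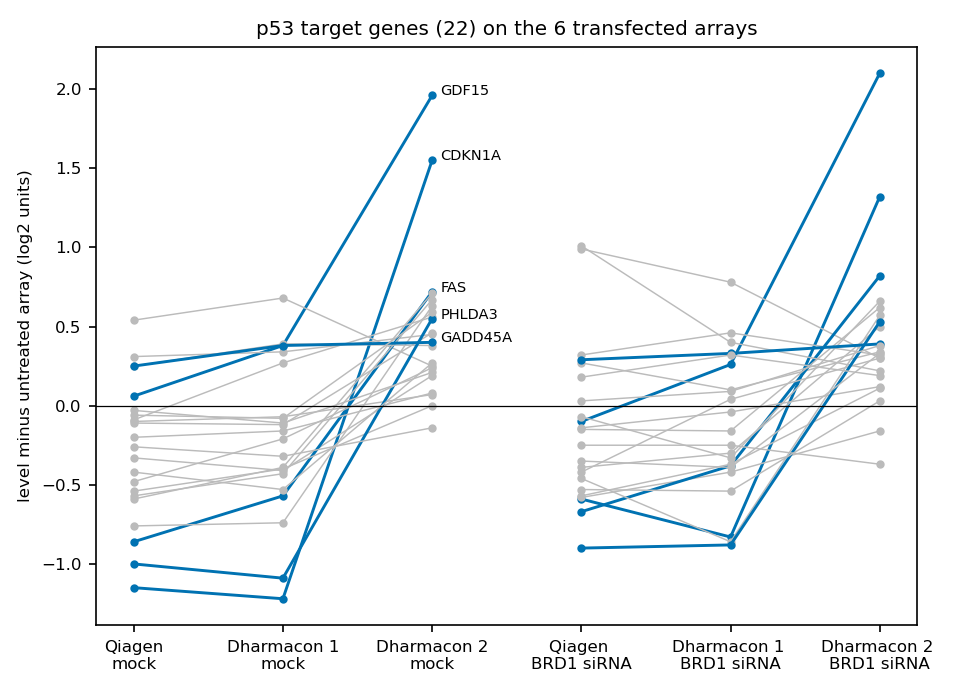
Level minus the untreated array, in log2 units, of 22 p53 target genes on the 3 mock and 3 BRD1 siRNA arrays; each line joins the values of 1 gene within a kind of siRNA, with 5 genes in blue named at the Dharmacon 2 mock array. CDKN1A lies at -1.15 and -1.22 on the Qiagen and Dharmacon 1 mock arrays and at 1.55 on the Dharmacon 2 mock array.

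Another set of genes was low on the Qiagen and Dharmacon 1 mock arrays alone. In 84 genes both arrays lay more than 1.5-fold below all 7 other arrays, and in 8 genes above them. MDK, a secreted growth factor chosen after its values were seen, had the largest SD of all genes, 1.73. It lay at 10.40 on the untreated array, at 7.62, 7.67 and 10.64 on the mock arrays and between 10.37 and 10.60 on the 5 others. SERP1, which protects membrane proteins of the endoplasmic reticulum, lay at 10.50 against 8.56, 8.50 and 10.42, and its difference in the list of the unfolded protein response thus comes from those arrays. HPRT1, a common reference gene of purine salvage, was also lowest on those arrays, at 12.36 against 11.79, 11.78 and 12.48. It fell short of 1.5-fold against the untreated array and the BRD1-L line, at 12.31, and so is not in this set. GUSB, another reference gene, was not low on those arrays, at 10.15 against 10.55, 10.55 and 10.18. Its BRD1 siRNA arrays lay in the same order, at 10.63, 10.81 and 10.11. ACTB, GAPDH and TBP differed by -0.08, 0.04 and -0.06 on average.

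The 1.5-fold line cuts through a continuum. Just inside it on the higher side were BTN3A2, SERINC2 and APOBEC3C, with nearest-array differences of 0.59, and just outside were PTGR2, ITPR1 and PPP1R13L, with 0.58, 0.57 and 0.57. On the lower side MAGOHB, ACYP2 and ID1 were just inside, with -0.59, -0.61 and -0.63, and ZNF25, TMEM190 and CHORDC1 just outside, with -0.58, -0.58 and -0.56.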

How the data were processed

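Expression was measured on Affymetrix U219 arrays. The authors deposited log2 intensities, 1 per probe set and array, and the study's methods state that signals were scaled to each array's average; how probes were summarised is not given in the sources used here. Such scaling fixes no probe against background, so dim genes are judged by level alone. Of 49386 probe sets, 45259 have 1 symbol in the platform annotation, 1327 several and 2800 none. A gene is the mean of its single-symbol probe sets, which gave 18239 genes, 11823 with more than 1 probe set. Groups come from the labels.

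Differences are mock minus untreated on the log2 scale, with 1.5-fold as threshold. The test was lmFit and eBayes in limma 3.58.1 (R 4.3.3) with Benjamini-Hochberg adjustment at 0.05, 3 arrays against 1, the lone untreated array being assumed to vary like the mock arrays. On simulated data of 18239 genes it called 31 of 100 genes changed by 1 log2 unit and 66 of 100 changed by 2, with 3 false calls. The simulated noise was independent between arrays, and the untreated array was given the spread of the mock arrays. These counts thus do not cover a deviation of the untreated array or the closeness of the Qiagen and Dharmacon 1 mock arrays. Named genes are the 15 each way farthest from untreated by the nearest array, among genes with all probe sets on one side and the brighter of untreated and mock mean above the median of all values, up to 4 members of each list on the same side of untreated on all 3 mock arrays, the 8 each way that best part 6 transfected from 3 other arrays, the 5 each way where untreated stands most apart, the 8 most spread, those nearest the threshold, BRD1 and reference genes. Others named were chosen after their values were seen, as were further members of the lists. The comparison, lists and rules were chosen with earlier results of these data known. Alternatives were each array centred, quantile normalization, the median or brightest probe set per gene, dim genes left out, a 2-fold threshold, probe sets, a variance trend, kit as covariate, all 9 arrays, and each array left out. Python 3.11.15, numpy 2.4.6, pandas 2.3.3 and matplotlib 3.10.9 were used for the rest.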

Additional observations from a re-analysis of the deposited data

How the results depend on the processing

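Each array centred or quantile normalized, the number of genes past 1.5-fold on all 3 mock arrays stayed within 1.5 times of 61 higher and 6 lower. With the median over probe sets 15 genes were lower, and with the brightest probe set 112 were higher and 13 lower. Past 2-fold 4 were higher and 0 lower. Leaving out each mock array gave 68 to 214 higher and 6 to 299 lower, the upper ends without the Dharmacon 2 mock array. Of those genes, 30 to 91 higher and 4 to 136 lower lay the same way with BRD1 siRNA against both lines, and 10 and 8 lower did with the median and the brightest probe set. The limma count of 0 held in both directions under all alternatives, with smallest adjusted p between 0.144, without the Dharmacon 2 mock array, and 1.

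For 6 transfected arrays against 3, chosen after seeing the data, 5 groups gave 32 higher and 19 lower, centring 34 and 4, and the brightest probe set 32 and 11. The random replicate block of mock and BRD1 siRNA pairs gave 13 and 6. Leaving out an array gave 0 to 20 higher and 0 to 14 lower. The median of the heat shock chaperones was -0.18 with quantile normalization, -0.20 with the median and -0.15 with the brightest probe set, and -0.18 without each mock array. Of 1358 values of 194 named genes under alternatives, 7 turned: RIGI at -0.08 with the median over probe sets, TAGLN at 0.05, PCNA at 0.03, RPS20 at 0.06, RPS19 at 0.04 and BYSL at -0.03 with the brightest probe set, and GAPDH at -0.000769 with quantile normalization. The causes were not tested. No paired analysis was possible because the untreated group has 1 array and no replicate number. With 1 untreated array, the limma test cannot see that array's own error, and no background measure was used for dim genes.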
